A study of Homo sapiens with 24 samples.

Results

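The genes described here encode surface ligands through which leukocytes recognise other cells. The 10 members were chosen by name, and their counts were read by Entrez identifier from the 25702 identifiers in each count table. They were the adhesion ligands ICAM1 and VCAM1, the NKG2D ligands MICA, MICB, ULBP1, ULBP2 and ULBP3, the non-classical class I molecule HLA-E, and the PD-1 ligands CD274 (PD-L1) and PDCD1LG2 (PD-L2). Of these 10, 7 passed the filter on low counts and were tested among 13356 genes, and MICA, MICB and HLA-E did not.

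RNA was sequenced from 24 samples of IMR90 ER:HRAS(G12V) cells, with 6 samples labelled biological replicates in each of 4 groups. The labels give passage 23 to 28 for every sample. IMR90 cells are human lung fibroblasts, and all samples carried ER:HRAS(G12V), an oncogenic HRAS fused to the oestrogen receptor that 4-hydroxytamoxifen (4OHT) switches on. Growing cells carried the MSCV vector without 4OHT, and shHMGA1 cells carried the MSCV miR30 shHMGA1 hairpin against the chromatin protein HMGA1, also without 4OHT. RIS cells carried the vector and RIS+shHMGA1 cells the hairpin, and these were exposed to 4OHT for 6 days, which brings on RAS-induced senescence (RIS). The study was about chromatin structure in senescence and its regulation by NOTCH signalling, with HMGA1 tested as a chromatin protein that takes part in it. Transgenes were delivered by retrovirus into this cell line alone, so the samples hold no leukocytes to respond to the ligands, and surface protein was not measured in these tables.

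Senescent cells are watched by the immune system. T cells and natural killer (NK) cells attach through integrins, LFA-1 to ICAM1 and VLA-4 to VCAM1. NK cells then weigh activating signals, such as binding of the stress-induced MIC and ULBP proteins to NKG2D, against inhibitory ones, such as binding of HLA-E to the receptor NKG2A. CD274 and PDCD1LG2 bind the inhibitory receptor PD-1 on T cells. Many of these genes respond to NF-kappaB, to interferon through STAT and IRF factors, or to both.

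Total counts lay between 8698070 and 23103424 per sample. HMGA1 lay between 638.9 and 860.9 CPM (counts scaled by TMM library sizes) in the 12 samples with vector and between 54.37 and 261.8 CPM in the 12 with the hairpin, without overlap. A pair of libraries departed from their groups. On the first principal component of all tested genes, which held 73.9% of the variance, the library labelled growing replicate 4 lay at 77.3, against −84.3 to −57.2 for the other growing samples. The library labelled RIS replicate 2 lay at −77.1, against 16.8 to 62.1 for the other RIS samples. The summed CPM of 6 cell cycle genes was 87.58 in growing replicate 4 and 572.2 in RIS replicate 2, against 496.2 to 718.9 in the other growing and 69.8 to 99.5 in the other RIS samples. The tests of the members in these groups are therefore given with all samples and without these libraries, and no sample was moved to another group.

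The cells carried fibroblast markers, with all 8 on the list tested and a summed level between 4435 and 40180 CPM. These markers moved with the treatment, since 7 of the 8 were lower in RIS+shHMGA1 than in shHMGA1 cells. PTPRC, which marks leukocytes, reached at most 0.6885 CPM in any sample. The endothelial markers PECAM1 and CDH5 reached at most 1.269 and 0.4231 CPM, and the epithelial marker EPCAM 1.26 CPM. The 9 leukocyte markers summed to 40.99 to 96.5 CPM in growing, 42.62 to 82.78 in shHMGA1, 61.89 to 106.5 in RIS and 56.07 to 75.31 CPM in RIS+shHMGA1 samples, and CD68, which fibroblasts also express, alone reached 105.5 CPM. The 7 endothelial markers summed to 30.09 to 110.1 CPM in growing, 70.98 to 125.1 in shHMGA1, 28.14 to 98.49 in RIS and 23.81 to 35.1 CPM in RIS+shHMGA1 samples, with TEK alone at up to 123.3 CPM. The growing and RIS extremes of 30.09 and 98.49 CPM were those of the departing libraries, without which these groups ranged from 77.54 to 110.1 and from 28.14 to 33 CPM. Of the 7, CLDN5, TIE1 and TEK were tested, and they differed in direction in RIS+shHMGA1 against shHMGA1 cells. CLDN5 was higher by 5.40 ± 1.29 on the log2 scale (SE, adjusted p = 0.0015) and TIE1 by 4.15 ± 0.88 (adjusted p = 0.00072), and TEK was lower with −2.42 ± 0.43 (adjusted p = 0.00027). In RIS against growing cells without the departing libraries, CLDN5 gave 5.77 ± 0.92 (adjusted p = 9.8e-06), TIE1 4.10 ± 0.40 (adjusted p = 5.7e-09) and TEK −2.21 ± 0.19 (adjusted p = 4.4e-10). The part of these markers in the results for the members was not tested. The 6 epithelial markers summed to at most 7.565 CPM in any sample. Fewer cells of a type and less RNA per cell cannot be told apart in such bulk samples.

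The promoters of ICAM1, VCAM1 and CD274 are shown because these genes were called in RIS+shHMGA1 against shHMGA1 cells. Of the 10 members, 8 had a promoter in the RefSeq table (build GRCh38.p14), and HLA-E and PDCD1LG2 did not. The 250 bases before each transcription start are printed 5′ to 3′, with capitals for matches to the motifs listed afterwards.

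ICAM1, chr19:10270870-10271119, plus strand: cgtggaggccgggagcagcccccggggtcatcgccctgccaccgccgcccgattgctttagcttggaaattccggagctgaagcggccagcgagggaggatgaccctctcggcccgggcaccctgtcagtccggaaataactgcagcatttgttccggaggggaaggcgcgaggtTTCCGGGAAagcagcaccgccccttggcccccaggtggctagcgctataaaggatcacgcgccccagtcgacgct
VCAM1, chr1:100719492-100719741, plus strand: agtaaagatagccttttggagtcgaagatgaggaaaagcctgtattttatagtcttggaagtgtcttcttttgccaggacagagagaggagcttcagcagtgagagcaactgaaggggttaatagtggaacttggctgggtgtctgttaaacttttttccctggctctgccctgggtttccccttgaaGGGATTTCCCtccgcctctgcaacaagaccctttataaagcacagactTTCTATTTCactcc
CD274, chr9:5450292-5450541, plus strand: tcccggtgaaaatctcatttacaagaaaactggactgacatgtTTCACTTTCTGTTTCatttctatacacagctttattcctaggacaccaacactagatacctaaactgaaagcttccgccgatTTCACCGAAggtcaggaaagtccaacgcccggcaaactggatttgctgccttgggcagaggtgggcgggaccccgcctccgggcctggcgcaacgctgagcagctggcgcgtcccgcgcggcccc

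The search covered the 300 bases from 250 before to 50 after the start, on both strands, for the NF-kappaB consensus, TGANTCA (AP-1), TTCNNNGAA (STAT), TTGCGNAA (C/EBP) and GAAANNGAA (IRF). ICAM1 held TTCNNNGAA with its first base 75 bases before the start, and VCAM1 the NF-kappaB consensus at 62 bases and GAAANNGAA at 14 bases before it. CD274 held TTCNNNGAA at 125 bases before the start and GAAANNGAA at 207 and at 201 bases, where these last matches overlap each other. ULBP1 and ULBP3 held an NF-kappaB match of the same letters, GGAGCATCCC, at 42 and 117 bases before their starts, and ULBP2 and ULBP3 held TGANTCA at 2 and 6 bases before theirs. MICA and MICB held none of the motifs. Of all 35116 promoters in the table, 11.3% held the NF-kappaB consensus, 7.71% TGANTCA, 7.66% TTCNNNGAA, 0.891% TTGCGNAA and 8.11% GAAANNGAA. These matches describe letters and do not show binding. Sites with other letters were not searched for, so a promoter without a match is not shown to lack a site.

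Per kilobase of exon, ICAM1 was the most highly expressed member in growing cells, at 34.8 ± 13.4 CPM per kb (SD, n = 6). PDCD1LG2 followed at 26.6 ± 5.57 and CD274 at 11.6 ± 4.23 CPM per kb. ULBP2 stood at 9.26 ± 2.06, ULBP3 at 1.36 ± 0.165, ULBP1 at 1.23 ± 0.371 and VCAM1 at 0.134 ± 0.0771 CPM per kb. Within that order, ICAM1 and PDCD1LG2, CD274 and ULBP2, and ULBP3 and ULBP1 did not differ by more than their spread. In RIS cells the order was ICAM1 at 64.1 ± 29.7, PDCD1LG2 at 17.1 ± 6.12, ULBP2 at 7.10 ± 0.787, CD274 at 6.66 ± 2.91, ULBP1 at 1.98 ± 0.609, ULBP3 at 1.39 ± 0.358 and VCAM1 at 0.0377 ± 0.0774 CPM per kb. There too, ULBP2 and CD274, and ULBP1 and ULBP3, did not differ beyond their spread. These levels include the departing libraries. Without RIS replicate 2, VCAM1 in RIS cells stood at 0.00629 ± 0.00869 CPM per kb and ICAM1 at 72.0 ± 25.2 (n = 5). There ULBP1 at 2.104 ± 0.596 stood above ULBP3 at 1.452 ± 0.356 CPM per kb by more than either SD. Their samples overlapped (1.677 to 3.057 and 1.109 to 1.985 CPM per kb). Without growing replicate 4, CD274 in growing cells stood at 13.1 ± 2.32 CPM per kb, above ULBP2 at 9.87 ± 1.56. That gap was larger than either SD, although their samples overlapped (10.91 to 16.1 and 8.018 to 11.72 CPM per kb). The same held for ULBP3 at 1.405 ± 0.146 and ULBP1 at 1.104 ± 0.214 CPM per kb in these growing cells. Their samples overlapped too (1.262 to 1.644 and 0.8673 to 1.355 CPM per kb).

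The effect of 4OHT was first compared among samples with the hairpin (the hairpin arm), where no library departed. It was then compared among those with the vector (the vector arm). The tests of both arms drew on a spread estimated over all 24 samples, the departing libraries included. No sample lacked ER:HRAS(G12V), so effects of RAS and of 4OHT itself cannot be told apart. A gene was called at an adjusted p (Benjamini-Hochberg over all tested genes, edgeR's quasi-likelihood test) under 0.01 where it also differed by more than 0.58 on the log2 scale. Of the 7 members tested, ICAM1 was higher in RIS+shHMGA1 than in shHMGA1 cells, VCAM1 and CD274 were lower, and 4 were not called, while 39.1% of all 13356 genes were called. VCAM1 passed the filter only through the shHMGA1 cells, where it was high, so that its call in this comparison had to be a difference and is given as a description. The median log2 fold change was −0.51 over the 7 members and −0.02 over all genes tested. The groups did not overlap in CPM for 4 of the 7 members, ICAM1, VCAM1, ULBP2 and CD274, as for 43.4% of all genes. With the departing libraries left out of the fit, ULBP1 was also higher and PDCD1LG2 also lower, making 5 of 7 against 44.4% of genes. With the samples of this comparison only, 4 of 7 were called, ICAM1, VCAM1, CD274 and PDCD1LG2, as were 5762 of 12936 genes. There ICAM1 gave 1.04 ± 0.13 (SE, adjusted p = 2e-06).

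For RIS against growing cells, 0 of the 7 members were called with all samples, as were 0% of all genes, although 6 of the 7 had an unadjusted p under 0.05, as did 4407 of all genes. DESeq2 called 0 members and 829 genes, and limma's voom with sample quality weights called 5 members and 6317 genes. Without growing replicate 4 and RIS replicate 2, edgeR called 5 of the 7: ICAM1 and ULBP1 were higher, and VCAM1, CD274 and PDCD1LG2 lower, against 39.7% of all genes. The CPM of these groups did not overlap for 0 of 7 members with all samples, against 0.367% of genes. Without both libraries it was 4 of 7 members, ULBP1, VCAM1, CD274 and PDCD1LG2, against 35.2% of genes. With 7 members these shares rest on few genes, and nothing particular to the members is read from them.

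**Figure D1:**
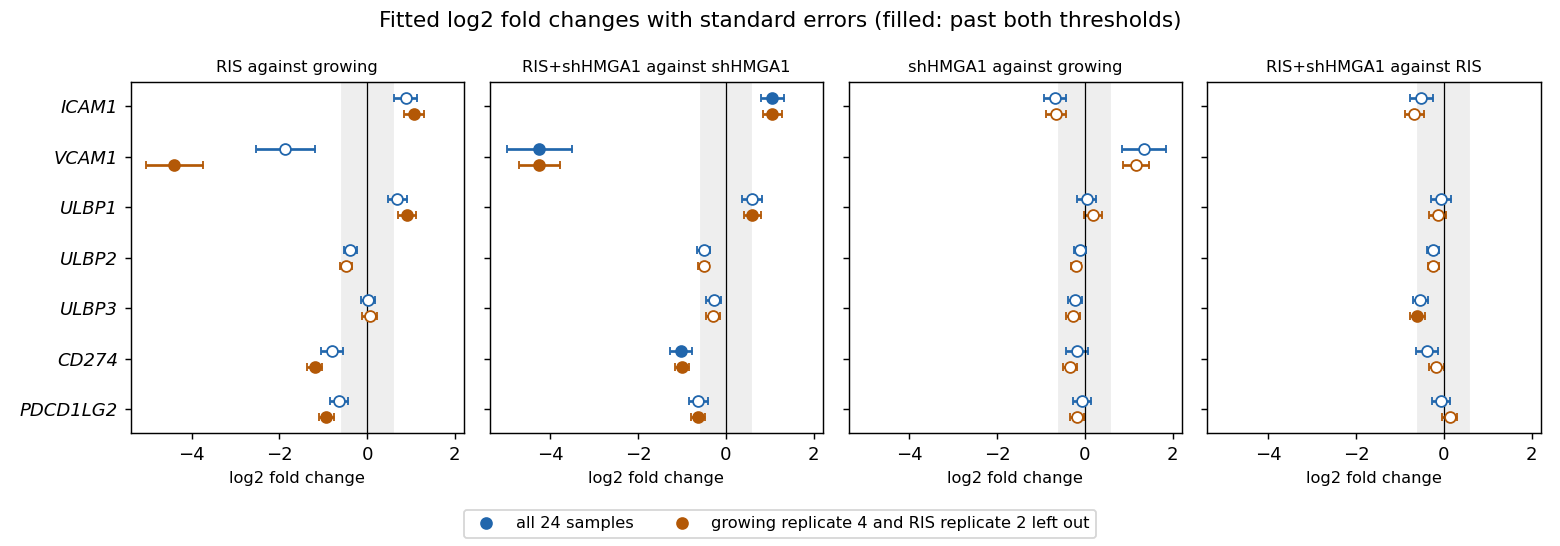
Fitted log2 fold change (horizontal axis) with its standard error for each tested member in 4 comparisons, with all 24 samples (blue) and without growing replicate 4 and RIS replicate 2 (brown). Filled points passed both thresholds, and the grey band spans the fold threshold of 0.58. VCAM1 is not drawn for RIS+shHMGA1 against RIS, where its counts were near the floor.

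ICAM1 (chromosome 19, 10381769 to 10397291, plus strand, GRCh37) encodes a ligand of LFA-1 that inflammatory cytokines induce. It ranged from 79.17 to 200.2 CPM in growing cells (median 110.7) and from 85.34 to 343.3 CPM in RIS cells (median 187.3). In shHMGA1 cells it ranged from 61.85 to 87.23 CPM (median 74.78), and in RIS+shHMGA1 cells from 127.2 to 208.8 CPM (median 138.8). All 6 RIS+shHMGA1 samples thus lay above all 6 shHMGA1 samples, while RIS and growing samples overlapped.

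The ICAM1 log2 fold change was 1.06 ± 0.26 (SE, adjusted p = 0.0022) in RIS+shHMGA1 against shHMGA1, and it was called under all 13 alternative analyses. Against growing cells, RIS gave 0.88 ± 0.26 (adjusted p = 0.032) with all samples and 1.07 ± 0.23 (adjusted p = 0.00036) without the departing libraries. RIS replicate 2 held the lowest ICAM1 of its group, at 85.34 CPM, and the other RIS samples started at 179.8 CPM.

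Replicate numbers 5 and 6 stood above 1 to 4 for ICAM1 in RIS cells. In RIS+shHMGA1 cells they did so too, at 188.3 and 208.8 CPM against 127.2 to 140.1 CPM. In shHMGA1 cells they overlapped, at 76.88 and 87.23 CPM against 61.85 to 80.75 CPM. In RIS they lay at 343.3 and 343.1 CPM, against 179.8 to 192.2 CPM for the others without replicate 2. In growing cells they lay at 135.9 and 200.2 CPM, against 79.17 to 92.14 CPM without replicate 4. Within each set of numbers, the RIS to growing difference in mean log2 CPM was of like size, 1.13 in replicates 1 to 4 and 1.06 in 5 and 6. Between RIS+shHMGA1 and shHMGA1 it was 0.92 in replicates 1 to 4 and 1.27 in 5 and 6. The labels give no batch, and what sets these numbers apart was not tested.

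VCAM1 (chromosome 1, 101185298 to 101204601, plus strand) binds the integrin VLA-4 and is best known from activated endothelium. Its counts were low, with 265 reads over all 24 samples, and it passed the filter only through the group where it was high, the shHMGA1 cells. It ranged from 0.1286 to 1.309 CPM in growing (median 0.839) and from 1.599 to 3.781 CPM in shHMGA1 cells (median 1.776). In RIS cells it ranged from 0 to 1.179 CPM (median 0.04231) and in RIS+shHMGA1 cells from 0 to 0.2606 CPM (median 0.1136). The 12 samples exposed to 4OHT held 0 to 3 reads each, with the exception of 13 reads in RIS replicate 2, and growing replicate 4 held 1 read, the lowest of its group.

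Summed over the 6 samples of each group, 167 VCAM1 reads in shHMGA1 stood against 6 in RIS+shHMGA1 cells. This is a ratio of 20.6 per library size (95% exact interval 9.25 to 56.8, counting error only). The fitted log2 fold change was −4.26 ± 0.74 (adjusted p = 0.00024), a description only, because the filter kept VCAM1 for its level in the shHMGA1 cells compared here. Growing against RIS gave 77 and 15 reads with all samples, a ratio of 4.06 (2.32 to 7.61). Without the departing libraries it was 76 and 2 reads, a ratio of 27.6 (7.38 to 232). The edgeR estimate for RIS against growing was −1.86 ± 0.68 (adjusted p = 0.063) with all samples and −4.39 ± 0.65 (adjusted p = 3.5e-06) without these libraries. With 2 RIS reads this last SE is not a reliable measure of precision, and the counting interval of 7.38 to 232 shows how wide the uncertainty is.

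CD274 (chromosome 9, 5450503 to 5470566, plus strand) encodes PD-L1, which interferon induces in many cell types. It ranged from 16.85 to 66.14 CPM in growing (median 48.75) and from 34.44 to 53.03 CPM in shHMGA1 cells (median 39.86). It ranged from 17.45 to 46.34 CPM in RIS (median 21.71) and from 18.43 to 22.62 CPM in RIS+shHMGA1 cells (median 21.8). All RIS+shHMGA1 samples lay below all shHMGA1 samples. Growing replicate 4 held the lowest value of its group, and RIS replicate 2 the highest, and without these libraries growing (44.81 CPM and above) and RIS (up to 38.16 CPM) did not overlap.

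The log2 fold change of CD274 was −1.02 ± 0.25 (adjusted p = 0.0021) in RIS+shHMGA1 against shHMGA1. It missed the threshold without replicate number 1 (adjusted p = 0.012) and without number 3 (adjusted p = 0.012), and was called under the other 11 of 13 alternatives. With the samples of this comparison only, CD274 gave −1.04 ± 0.12 (adjusted p = 3.4e-07). RIS against growing gave −0.80 ± 0.25 (adjusted p = 0.037) with all samples and −1.19 ± 0.17 (adjusted p = 2.4e-06) without the departing libraries.

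PDCD1LG2 (chromosome 9, 5510531 to 5571282, plus strand) encodes PD-L2 and starts 39964 bases beyond the end of CD274. It ranged from 42.69 to 79.62 CPM in growing (median 66.29) and from 47.1 to 77.28 CPM in shHMGA1 cells (median 62.29). It ranged from 23.1 to 68.47 CPM in RIS (median 40.25) and from 28.87 to 47.9 CPM in RIS+shHMGA1 cells (median 42.85). The hairpin groups overlapped only narrowly, between 47.1 and 47.9 CPM. RIS against growing gave −0.64 ± 0.20 (adjusted p = 0.041) with all samples and −0.93 ± 0.17 (adjusted p = 6.6e-05) without the departing libraries.

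In RIS+shHMGA1 against shHMGA1, PDCD1LG2 gave −0.63 ± 0.21 (adjusted p = 0.012), which missed the threshold, and 5 of 13 alternatives called it. Among these, it gave −0.65 ± 0.15 (adjusted p = 0.00071) with the samples of this comparison only. Without the departing libraries of the vector arm it gave −0.63 ± 0.16 (adjusted p = 0.0012). Replicates 5 and 6 were the lowest of their groups in both hairpin groups, and also in RIS cells (23.1 and 35.42 CPM against 39.46 to 68.47 CPM). They lay at 49.02 and 47.1 CPM against 54.95 to 77.28 CPM in shHMGA1, and at 29.99 and 28.87 CPM against 41.75 to 47.9 CPM in RIS+shHMGA1 cells. Within replicates 1 to 4 the difference in mean log2 CPM was −0.59, and within 5 and 6 it was −0.70.

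The ratio of ICAM1 to CD274 within a sample, which no scaling between samples can alter, restates the opposite directions for which these genes were picked, and it is given as a description. The count of ICAM1 was 1.37 to 2.23 times that of CD274 in the 6 shHMGA1 samples and 6.02 to 9.23 times in the 6 RIS+shHMGA1 samples. In growing cells the ratio was 1.57 to 3.03 without replicate 4, which stood at 7.67, and in RIS cells 8.46 to 15.5 without replicate 2, which stood at 1.84, so that with all samples these groups overlapped. The ratio of CD274 to PDCD1LG2 overlapped throughout, with 0.529 to 0.852 in shHMGA1 and 0.396 to 0.783 in RIS+shHMGA1 samples. It was 0.395 to 1.16 in growing and 0.414 to 1.08 in RIS samples.

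The ULBP genes lie together on chromosome 6, ULBP2 from 150263150 to 150270371 and ULBP1 from 150285079 to 150294851 on the plus strand, and ULBP3 from 150382189 to 150390257 on the minus strand. They encode lipid-anchored NKG2D ligands. Of the 50-base windows of its exons, ULBP2 shared 32.6% with RAET1G or RAET1L, so its reads could have been split or dropped in counting. ULBP1 and ULBP3 shared 3.8% and 3.92% of theirs with each other.

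ULBP1 ranged from 2.785 to 6.044 CPM in growing (median 3.86), 3.137 to 5.893 in shHMGA1 (median 3.556), 4.444 to 9.816 in RIS (median 5.556) and 4.167 to 8.426 CPM in RIS+shHMGA1 cells (median 6.041). Growing replicate 4 was the highest of its group and RIS replicate 2 the lowest, and without them growing (up to 4.352 CPM) and RIS (from 5.386 CPM) did not overlap. RIS against growing gave 0.69 ± 0.22 (adjusted p = 0.04) with all samples and 0.91 ± 0.21 (adjusted p = 0.00072) without them. RIS+shHMGA1 against shHMGA1 gave 0.59 ± 0.22 (adjusted p = 0.025), and 0.60 ± 0.20 (adjusted p = 0.0099), just inside the threshold, without these libraries.

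ULBP2 ran in the other direction and by less. It ranged from 8.23 to 15.65 CPM in growing (median 12.33), 10.35 to 13.69 in shHMGA1 (median 11.29), 8.02 to 10.91 in RIS (median 9.554) and 6.59 to 9.724 CPM in RIS+shHMGA1 cells (median 7.871). The hairpin groups did not overlap, and RIS+shHMGA1 against shHMGA1 gave −0.51 ± 0.14 (adjusted p = 0.0032), which passed the adjusted p and not the fold threshold. RIS against growing gave −0.38 ± 0.14 (adjusted p = 0.056) with all samples and −0.48 ± 0.13 (adjusted p = 0.0027) without the departing libraries, again short of the fold threshold.

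ULBP3 ranged from 3.601 to 5.115 CPM in growing (median 4.227), 2.778 to 4.921 in shHMGA1 (median 3.503), 3.265 to 6.177 in RIS (median 3.973) and 2.656 to 3.299 CPM in RIS+shHMGA1 cells (median 2.981). All groups overlapped with all samples, save that RIS+shHMGA1 samples lay just under the growing samples. RIS against growing gave 0.02 ± 0.16 (adjusted p = 0.93), and RIS+shHMGA1 against shHMGA1 −0.28 ± 0.17 (adjusted p = 0.14). Neither passed the thresholds without the departing libraries, where the estimates were 0.06 and −0.29.

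The effect of the hairpin was compared in growing cells and in RIS cells, which share their reference samples with the comparisons above. For shHMGA1 against growing cells, 0 of 7 members were called by edgeR, DESeq2 or voom, against 0.27% of all genes by edgeR, and 99 and 845 genes by DESeq2 and voom. An unadjusted p under 0.05 in edgeR was seen for 2 members and for 1759 of the 13356 genes. Without the departing libraries it was again 0, against 2.59% of genes. VCAM1 was the only member whose groups did not overlap, with all shHMGA1 samples above all growing samples, against 1.3% of genes with all samples and 6.87% without the departing libraries. The filter kept VCAM1 only for its level in the shHMGA1 cells compared here, so its values in this comparison are a description only. Summed reads were 77 in growing and 167 in shHMGA1 cells, a growing to shHMGA1 ratio of 0.43 per library size (95% exact interval 0.324 to 0.566, counting error only). The log2 fold change of VCAM1 was 1.35 ± 0.51 (adjusted p = 0.25), and 1.16 ± 0.30 (adjusted p = 0.014) without them. ICAM1 gave −0.68 ± 0.26 (adjusted p = 0.26), and −0.66 ± 0.22 (adjusted p = 0.042) without them. Its difference in mean log2 CPM was −0.25 in replicates 1 to 4, without growing replicate 4, and −1.01 in 5 and 6. That of CD274 was −0.08 and −0.77 in the same sets, beside a fitted −0.17 ± 0.25 (adjusted p = 0.82) over all samples.

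For RIS+shHMGA1 against RIS cells, 0 of 7 members were called by edgeR, DESeq2 or voom, against 2.55% of all genes by edgeR, and 1573 and 1856 genes by DESeq2 and voom. An unadjusted p under 0.05 in edgeR was seen for 1 member and for 6647 of the 13356 genes. Without the departing libraries ULBP3 was lower, at −0.60 ± 0.17 (adjusted p = 0.0091), the only call among the 7, against 12.5% of genes. With all samples it was −0.53 ± 0.17 (adjusted p = 0.023). ULBP3 was also the only member without overlap in that setting, against 14.9% of genes. The gap was wider in replicates 5 and 6, with a difference of −0.84 in mean log2 CPM, than in 1 to 4 with −0.34.

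ICAM1 in RIS+shHMGA1 against RIS gave −0.51 ± 0.26 (adjusted p = 0.12) with all samples and −0.67 ± 0.22 (adjusted p = 0.02) without the departing libraries, short of the threshold. CD274 gave −0.38 ± 0.25 (adjusted p = 0.23), and −0.17 ± 0.17 (adjusted p = 0.44) without the departing libraries. PDCD1LG2 gave −0.06 ± 0.21 (adjusted p = 0.82), and 0.14 ± 0.17 (adjusted p = 0.53) without them, so its direction was not settled. For VCAM1 no direction is read from the fit, because both groups lay at or near the floor of 3 reads per library once RIS replicate 2 was set aside.

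Whether the response to RAS differed with the hairpin was tested by the interaction term. It was called for 0 of 7 members and 0% of genes with all samples, and for 0 of 7 members and 0.00745% of genes without the departing libraries. By unadjusted p under 0.05, 1 member and 1371 genes passed with all samples, and DESeq2 and voom called 0 members and 5 and 7 genes. The widest term was that of VCAM1, −2.40 ± 1.13 (adjusted p = 0.43), which became 0.14 ± 0.49 without the departing libraries. That SE of 0.49 lies below the 0.65 of VCAM1 in RIS against growing in the same setting. It is therefore not a measure of precision for this gene near the floor.

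MICA (chromosome 6, 31367561 to 31383092), MICB (31462658 to 31478901) and HLA-E (30457286 to 30461971), all on the plus strand, lie in the major histocompatibility complex. MICB and HLA-E were listed at 0 in all 24 samples, and MICA held 20 reads in all and at most 4 in a sample. Much of this stretch was without counts. From 2 Mb before to 3 Mb after the start of HLA-E, a window set after its counts had been seen, 145 of 164 protein-coding genes (88.4%) were at 0 in every sample, against 12.3% of the other 18612. TUBB and CSNK2B, a tubulin and a casein kinase subunit that most cells express, were listed at 0, and RPS18, a ribosomal protein gene, held 4 reads in all.

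HLA-C held 18 reads in all, HLA-B 16183, and B2M, the class I light chain encoded outside the stretch, 742136. The zeros of HLA-E and MICB therefore give no level and no upper limit, and MICA gives no comparison between groups. Why the stretch lacks counts was not tested.

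Other genes of the same systems were counted by list, in RIS+shHMGA1 against shHMGA1 with all samples and then in RIS against growing without the departing libraries. Against these counts stand the 39.1% and 39.7% of all genes called. With all samples, RIS against growing gave 0 calls in every list.

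Of 14 further adhesion genes, 11 were tested. In the hairpin arm 3 were higher and 2 lower, with a median log2 fold change of −0.01, and in the vector arm 4 were higher and 2 lower, with a median of 0.31. CD58, the ligand of CD2 on T and NK cells, was higher by 1.96 ± 0.45 (adjusted p = 0.0013) in the hairpin arm and 1.48 ± 0.28 (adjusted p = 7.8e-05) in the vector arm. F11R, a junctional adhesion molecule, rose by 1.73 ± 0.33 (adjusted p = 0.00035) and ICAM3, another LFA-1 ligand, by 1.09 ± 0.31 (adjusted p = 0.0047) in the hairpin arm. ALCAM, the ligand of CD6, fell with −2.37 ± 0.40 (adjusted p = 0.00022) and −2.03 ± 0.21 (adjusted p = 8.8e-09). NECTIN3 fell with −1.37 ± 0.22 (adjusted p = 0.00021) and −1.18 ± 0.13 (adjusted p = 2.1e-08). In the vector arm F11R rose by 1.63 ± 0.30 (adjusted p = 5.8e-05) and ICAM2 by 1.45 ± 0.42 (adjusted p = 0.0045).

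Of 14 further NK cell ligands, 8 were tested, and 3 others lie in the stretch without counts. In each arm 3 were higher and 1 lower, with medians of 0.38 and 0.43. CLEC2B, the ligand of NKp80, had the widest difference, 4.19 ± 0.81 (adjusted p = 0.00038) in the hairpin arm and 3.48 ± 0.33 (adjusted p = 3.2e-09) in the vector arm. CLEC2D, the ligand of the inhibitory receptor CD161, gave 3.09 ± 0.57 (adjusted p = 0.0003) and 2.44 ± 0.25 (adjusted p = 1.5e-08). RAET1E, a further NKG2D ligand, gave 2.29 ± 0.52 (adjusted p = 0.0011) and 1.85 ± 0.40 (adjusted p = 0.00034). NECTIN2, a ligand of the activating receptor DNAM-1, fell with −0.96 ± 0.19 (adjusted p = 0.00047) and −0.81 ± 0.12 (adjusted p = 2e-06).

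CLEC2B and CLEC2D were also higher in RIS+shHMGA1 than in RIS cells without the departing libraries, by 1.41 ± 0.26 (adjusted p = 0.0011) and 0.95 ± 0.20 (adjusted p = 0.0022). In that setting CD58 gave 0.89 ± 0.25 (adjusted p = 0.0096). PVR, a DNAM-1 ligand like NECTIN2, was lower with all samples, at −0.63 ± 0.13 (adjusted p = 0.0062). CD276, a B7 family member, gave −0.59 ± 0.13 (adjusted p = 0.0088) with all samples and was not called without the departing libraries.

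Of 16 further checkpoint and co-stimulatory ligands, 10 were tested. In the hairpin arm 1 was higher and 3 lower, with a median of −0.34, and in the vector arm 2 were higher and 2 lower, with a median of −0.43. TNFSF4 (OX40 ligand), a co-stimulator of T cells, fell with −4.60 ± 0.82 (adjusted p = 0.00027) and −4.62 ± 0.26 (adjusted p = 2.6e-13). VSIR, an inhibitory B7-like molecule, fell with −2.67 ± 0.61 (adjusted p = 0.0011) and −2.83 ± 0.32 (adjusted p = 6.2e-08). LGALS9, the ligand of TIM-3, fell in the hairpin arm with −2.05 ± 0.62 (adjusted p = 0.0071). BTN2A2, a butyrophilin, rose by 1.46 ± 0.33 (adjusted p = 0.0011) and 1.77 ± 0.17 (adjusted p = 2.8e-09), and in the vector arm ICOSLG, the ligand of ICOS, rose by 1.17 ± 0.34 (adjusted p = 0.0044).

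All 19 genes of the NF-kappaB, IL-1, interferon and STAT list were tested. In the hairpin arm 5 were higher and 2 lower, with a median of −0.21, and in the vector arm 6 were higher and 1 lower, with a median of −0.10. IL1B and IL1A, cytokines that switch on NF-kappaB, rose by 4.25 ± 0.91 (adjusted p = 0.00076) and 3.69 ± 0.75 (adjusted p = 0.00052) in the hairpin arm, and by 4.61 ± 0.26 (adjusted p = 3.3e-13) and 4.12 ± 0.19 (adjusted p = 1.1e-14) in the vector arm. IRF2, a factor of the interferon response, rose by 1.01 ± 0.21 (adjusted p = 0.00054) and 0.90 ± 0.12 (adjusted p = 4.3e-07). IRF1, which drives CD274 downstream of interferon, fell in the hairpin arm with −0.79 ± 0.17 (adjusted p = 0.00067), as did NFKB2 with −0.60 ± 0.18 (adjusted p = 0.0058). In the vector arm JAK2, a kinase of the interferon-gamma receptor, fell with −0.66 ± 0.14 (adjusted p = 0.00036). STAT3 was lower in RIS+shHMGA1 than in RIS cells, at −0.72 ± 0.16 (adjusted p = 0.0067) with all samples and −0.62 ± 0.12 (adjusted p = 0.0013) without the departing libraries.

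Of 12 genes for ligand shedding, stability and class I assembly, 9 were tested, and TAP1, TAP2 and TAPBP lie in the stretch without counts. In the hairpin arm 1 was higher and 2 lower, with a median of −0.13, and in the vector arm 0 were higher and 1 lower, with a median of 0.01. ADAM10, a protease that sheds NKG2D ligands and other surface proteins, fell with −0.99 ± 0.23 (adjusted p = 0.0012) and −0.78 ± 0.14 (adjusted p = 5.5e-05). ERAP1, which trims class I peptides, fell in the hairpin arm with −0.67 ± 0.15 (adjusted p = 0.0008). B2M rose there by 1.05 ± 0.32 (adjusted p = 0.0069), and was higher in RIS+shHMGA1 than in RIS cells by 1.47 ± 0.32 (adjusted p = 0.0071). Without the departing libraries B2M was also higher in shHMGA1 than in growing cells, by 0.98 ± 0.23 (adjusted p = 0.0086).

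Genes that mark the cell state moved with the labels of the hairpin arm. Of 6 genes known to rise in senescence 5 were higher, with a median of 1.92, and all 6 cell cycle genes were lower, with a median of −3.01. In the vector arm all 6 of each were called in these directions without the departing libraries, with medians of 1.47 and −3.03.

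For each member called in the hairpin arm with all samples, the genes with the most like pattern were those with the smallest root mean square difference of centred log2 CPM over the 24 samples. For ICAM1, whose own SD was 0.69, these were SLC20A1 at 0.19, BHLHE40 at 0.21 and ENTPD7 at 0.25. For CD274, with an SD of 0.63, they were FRMD6 at 0.18, HNRNPH3 at 0.21 and MBNL2 at 0.21. For VCAM1, with an SD of 1.48, they were DEPDC1B at 0.46, EDNRB at 0.47 and TROAP at 0.47, where VCAM1 counts were low. The departing libraries were kept in this search.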

How the data were processed

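Counts of 24 RNA-seq samples were analysed, 6 in each of 4 groups taken from the labels. Per the labels and the study's methods, stranded libraries were mapped to hg19 with STAR 2.5.0b, reads with low mapping quality and adapters were filtered (cutadapt 1.10.0), and reads were counted with Rsubread. The authors deposited raw counts, whole numbers per Entrez identifier without normalisation. The gene annotation and strand setting are not given in the sources used here. Symbols came from a RefSeq table that held 23696 of the 25702 identifiers.

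Genes were filtered with filterByExpr by group (minimum count 10), scaled by TMM, and tested in edgeR 4.0.16 (R 4.3.3) with a quasi-likelihood fit of 4 group means over all 24 samples. Genes were called at an FDR under 0.01 with a log2 change larger than 0.58 in size, as in the study's methods. CPM uses TMM library sizes, and log2 CPM a prior count of 2. Intervals cover counting error only. The SE of edgeR estimates was worked back as the size of the log2 fold change over the square root of the test's F. Near the floor of counts it is not a reliable measure of precision. Levels per kilobase use exon lengths of GENCODE v44 lifted to GRCh37, which is not stated to be the annotation behind the counts. The scripts were tested on simulated counts. None of the 60 pairs of samples within a group agreed within sampling noise, so none was counted as a duplicate. Pairs across groups were not checked. The labels call the samples biological replicates, and how they were grown apart is not given there, so the spread may be in part technical.

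The members and gene lists were chosen with earlier results of these data known, as was the setting that leaves out growing replicate 4 and RIS replicate 2. All 10 members are named, with up to 3 called genes of each list in each direction and comparison by size of change, and the 3 genes most like each member called in RIS+shHMGA1 against shHMGA1. Other genes named as checks (markers and genes around HLA-E) were picked outside this rule, those around HLA-E after their values were seen. Alternatives were RLE scaling, DESeq2 1.42.0, no filter, the replicate number as a block, the samples of the contrast only, both departing libraries left out, voom with sample quality weights (limma 3.58.1), and each replicate number left out in turn.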

Additional observations from a re-analysis of the deposited data

Results flagged for a closer look

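In 28 comparisons of 6 samples, a member's log2 CPM was checked for a sample set apart from the rest of its group, measured as its gap to the nearest other sample over the range of the group. VCAM1 in RIS replicate 2 gave 0.768, and CD274 in growing replicate 4 gave 0.715, both over Dixon's 95% critical value for 6 samples. Chance flags about 1 in 20 groups, and these were 2 of 28. For VCAM1 the sample lay above its group, and for CD274 below it, and both libraries are those that departed over all genes.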

How the results depend on the processing

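The number of members called did not change with RLE scaling, and no alternative called a member in the interaction term or in shHMGA1 against growing. In RIS against growing, the 0 members called with all samples became 5 without the departing libraries and 5 with voom. In RIS+shHMGA1 against shHMGA1, the 3 became 5 without the departing libraries, and in RIS+shHMGA1 against RIS the 0 became 1. With 1 replicate number left out in turn, these counts lay between 0 and 4, between 2 and 4, and between 0 and 0. Number 2 gave 4 (ICAM1, VCAM1, CD274 and PDCD1LG2) in RIS against growing and number 4 gave 1 (CD274). Genes called rose or fell by over 1.5 times in these settings. In RIS against growing, the 0 genes became 829 with DESeq2, 5331 without the departing libraries, 6317 with voom and 0 to 2083 with 1 replicate number left out (1834 without number 2 and 2083 without number 4). In RIS+shHMGA1 against shHMGA1, the 5220 became 3037 to 5502 with 1 number left out, the lowest without number 3 and 3184 without number 1. In shHMGA1 against growing, the 36 became 99 with DESeq2, 23 without the filter, 5 with the samples of the contrast only, 348 without the departing libraries, 845 with voom and 5 to 25 with 1 number left out. In RIS+shHMGA1 against RIS, the 341 became 1573 with DESeq2, 189 without the filter, 1677 without the departing libraries, 1856 with voom and 14 to 2205 with 1 number left out (2205 without number 4). The 0 of the interaction became 5, 1 and 7 with DESeq2, without the departing libraries and with voom, and 0 to 1 with 1 number left out. Every one of the 6 numbers moved some count here, and the cause was not tested.

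With the replicate number as a block, 1 gene was called in RIS against growing and 1637 in RIS+shHMGA1 against RIS, and PDCD1LG2 was called in RIS+shHMGA1 against shHMGA1 (−0.63, adjusted p = 0.0024). The correlation of same-numbered samples' deviations over genes ran from −0.594 to 0.828 in RIS against growing, from −0.023 to 0.326 in RIS+shHMGA1 against shHMGA1, from 0.075 to 0.481 in shHMGA1 against growing and from −0.202 to 0.530 in RIS+shHMGA1 against RIS, and was over 0.1 in 3, 5, 5 and 5 of 6 pairs. Of 12 samples in each, 3, 4, 8 and 4 correlated best with their own number. The deviations were taken from group means that include the departing libraries, and numbers 2 and 4 gave 0.766 and 0.828 in RIS against growing. Correlations with growing or RIS samples therefore cannot settle whether a number marks a shared origin, and the labels do not say so. Since not every pair was over 0.1 the numbers were not taken as pairs, although several numbers did move together.

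Of 362 member fold changes under alternatives, 321 kept direction and call, 23 gained a call, 2 lost it and 16 reversed, all 16 among uncalled values. Those of VCAM1 in RIS+shHMGA1 against RIS, fitted near the floor, where no direction is read, went from −1.05 to 1.29 without the departing libraries and 0.95 with voom, and to between −1.91 and 1.55 with 1 number left out. PDCD1LG2 in that comparison went from −0.06 to 0.14, 0.10 and −0.12 to 0.08, and CD274 from −0.38 to 0.02 with voom and −0.49 to −0.18 with 1 number left out. ULBP1 there went from −0.06 to −0.15 to 0.14 with 1 number left out. In shHMGA1 against growing, ULBP1 lay between −0.10 and 0.20 and PDCD1LG2 between −0.23 and 0.03 with 1 number left out. ULBP3 in RIS against growing went from 0.02 to −0.00 with the block, −0.13 with voom and −0.10 to 0.14 with 1 number left out.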
